A study of Mus musculus with 2 samples.

Results

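The genes described here form the oxygen sensing machinery of the hypoxia-inducible factors (HIF) in adipose tissue macrophages (ATM), the macrophages that live in or enter fat. They were picked by their known roles, with earlier results of these data known. The 8 genes were the subunits Hif1a (HIF-1α), Epas1 (HIF-2α) and Arnt (HIF-1β), the prolyl hydroxylases Egln1 (PHD2), Egln2 (PHD1) and Egln3 (PHD3), the asparaginyl hydroxylase Hif1an (FIH), and Vhl. All 8 were found among the 20330 gene identifiers of the deposited table.

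ATM were sorted, with antibodies to the product of Adgre1 and to CD11b, from visceral fat of C57BL/6 mice after 12 weeks of high-fat diet. WT mice were hMRP8cre-;Hif-1αfl/fl;ApoE-/- and KO mice were hMRP8cre+;Hif-1αfl/fl;ApoE-/-, so by the labels both genotypes were null for ApoE and both carried the floxed Hif1a alleles. Apoe mRNA was present in both libraries, at 94.3 FPKM for WT and 117 for KO. Cre was driven by the promoter of human MRP8, a gene of myeloid cells that is most active in neutrophils and their precursors, and the share of sorted macrophages that had recombined was not analysed here. According to the study's methods, the diet began in young mice a few weeks after birth. The number of animals behind a library is not given in the sources used here. There was 1 library per genotype, so no difference below has a replicate check or a p-value, and each comparison is one of libraries and not of genotypes.

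ARNT is present at all oxygen levels, and HIF forms when it pairs with an α subunit, the part that oxygen regulates. The VHL protein binds HIF-α once the prolyl hydroxylases have modified it, a step that uses oxygen. The ubiquitin ligase built around VHL then marks HIF-α for the proteasome. FIH hydroxylates an asparagine of HIF-α and blocks the binding of the coactivators p300 and CBP. Most of this control acts on protein, so the mRNA levels below do not show HIF activity. Egln1 and Egln3 are themselves well known HIF targets, which forms a negative feedback. Obese fat holds hypoxic regions, and macrophages use HIF-1α for glycolysis and inflammatory responses.

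The letters to which HIF binds are ACGTG or GCGTG, the core of the hypoxia response element. They were searched on both strands in the 250 bases before the start site, in RefSeq promoters of GRCm38.p6. The authors aligned to mm9, so these coordinates do not refer to their build. Promoters were listed for 7 of the 8 genes, and Egln2 had 2. The 4 sequences below belong to the targeted gene, to the HIF-inducible hydroxylases Egln1 and Egln3, and to Hif1an, which together with Egln1 differed most between the libraries. Capitals mark the cores, and in Hif1a the run of 6 capitals is a palindrome that holds a core on each strand.
Hif1a, chr12:73907617-73907866, plus strand: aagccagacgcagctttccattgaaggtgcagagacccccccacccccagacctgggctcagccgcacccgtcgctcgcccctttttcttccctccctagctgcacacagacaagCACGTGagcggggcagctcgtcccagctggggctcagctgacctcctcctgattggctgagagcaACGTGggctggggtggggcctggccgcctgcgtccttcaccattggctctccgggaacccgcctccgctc
Egln1, chr8:124949255-124949504, minus strand: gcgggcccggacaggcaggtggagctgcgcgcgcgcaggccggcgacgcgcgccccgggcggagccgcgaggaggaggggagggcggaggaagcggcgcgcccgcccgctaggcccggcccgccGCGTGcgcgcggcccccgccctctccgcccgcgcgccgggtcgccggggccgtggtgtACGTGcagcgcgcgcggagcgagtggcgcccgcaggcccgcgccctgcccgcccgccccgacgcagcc
Egln3, chr12:54203875-54204124, minus strand: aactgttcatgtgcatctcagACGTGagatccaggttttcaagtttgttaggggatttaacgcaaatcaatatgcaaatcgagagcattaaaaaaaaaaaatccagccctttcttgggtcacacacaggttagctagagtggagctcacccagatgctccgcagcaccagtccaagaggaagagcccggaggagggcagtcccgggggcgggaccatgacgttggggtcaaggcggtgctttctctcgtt
Hif1an, chr19:44562604-44562853, plus strand: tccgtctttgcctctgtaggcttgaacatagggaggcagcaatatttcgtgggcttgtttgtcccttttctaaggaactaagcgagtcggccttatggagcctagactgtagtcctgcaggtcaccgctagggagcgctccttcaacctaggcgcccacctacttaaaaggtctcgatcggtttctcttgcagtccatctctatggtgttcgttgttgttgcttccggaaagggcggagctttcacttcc

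A core was present in 6 of the 8 promoters of these genes (75%), against 38.6% of all 32851 promoters in the RefSeq table. Their median GC content was 58.2%, against 52.4% over all promoters, and the share of promoters holding a core was not compared at matched GC content. Egln1 held a core starting at position -126 and another at -68 from the start site, Egln3 held 1 at -229, and Hif1an and Vhl held none in this window. A match of letters is a description and not a binding site.

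Levels are given as FPKM, fragments normalised for transcript length and for the number of mapped fragments, which permits comparison between genes within a library. Changes are differences of log2(FPKM + 1), KO minus WT, and folds are ratios of the FPKM themselves. A gene was counted as past 3-fold when its change was at least 1.585 in either direction on the log2(FPKM + 1) scale, which understates the change of low genes. Of the 8 genes, 7 had an FPKM of at least 1 in a library. Past 3-fold were 2 of these 7 (28.6%), Hif1an being higher in KO and Egln1 lower. Each reached 1 FPKM only in the library where it was high, and with 1 FPKM required in both libraries 0 of the 5 genes left were past 3-fold. Across all 10297 genes compared, 27.3% were past 3-fold, 13.6% higher and 13.7% lower, so the share among the oxygen sensing genes was near that of any gene. The median change of the 7 genes was -0.52, against 0.03 over all genes, and 5 of the 7 were below 0.

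**Figure D1:**
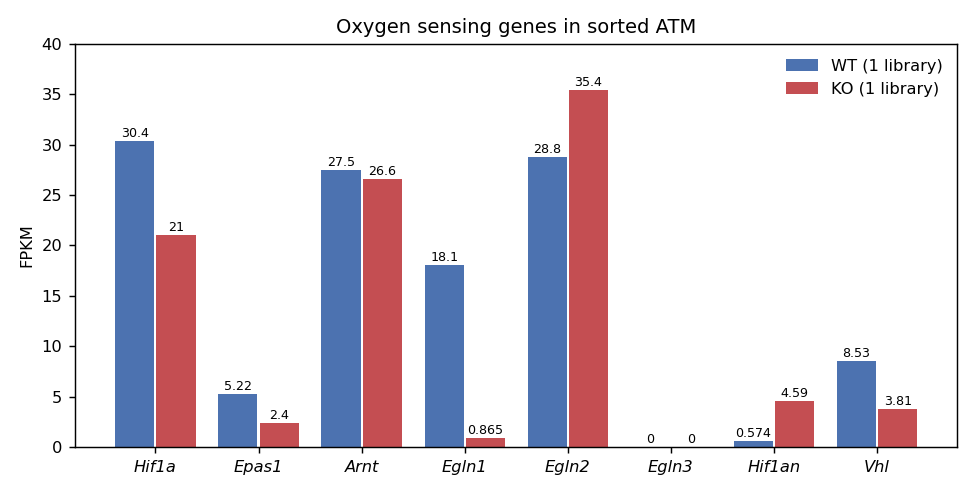
Bars show the FPKM of each oxygen sensing gene in the WT library (blue) and the KO library (red), 1 library each, so there are no error bars. Egln1 stood at 18.1 in WT and 0.865 in KO, whereas Arnt stood at 27.5 and 26.6, and Egln3 was listed at 0 in both.

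The α subunits were examined first, since Hif1a was the targeted gene. Hif1a (ENSMUSG00000021109) was at 30.4 FPKM in the WT library against 21 in the KO library. It was thus 1.45-fold lower in the KO library, a change of -0.52, and its mRNA was plainly present there. About 781 fragments (WT) and 686 fragments (KO) lie behind these levels, by the depth estimate given at the end. Among the 1711 genes with a mean FPKM of 20 to 50, the middle 50% of changes lay between -0.57 and 0.59, and Hif1a lay inside that range. The table holds a single value for the whole gene. Excision of a floxed exon can leave the rest of a transcript in place, so this value does not test the deletion, and cells that had not recombined cannot be told apart from cells that had. In these pooled cells, fewer expressing cells and less RNA per cell cannot be told apart either. In the GENCODE annotation 5.60% of the exonic bases of Hif1a are shared with Gm15283 on the opposite strand and 2.51% with Gm49321 on the same strand, and use of strand in the counting is not given in the sources used here.

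Epas1 (ENSMUSG00000024140) encodes HIF-2α, which shares ARNT and many DNA sites with HIF-1α and was asked about as a possible compensation. It was at 5.22 FPKM (WT) and 2.40 FPKM (KO), with an estimated 169 and 98.9 fragments. Epas1 was lower in the KO library by 2.17-fold, a change of -0.87, so its level in KO was not above that in WT. The change did not pass 3-fold, and 54.1% of the 2905 genes with a mean FPKM of 1 to 5 did. Epas1 reached 17.1% of the Hif1a level in WT and 11.5% in KO. In other words Hif1a exceeded Epas1 by 5.83-fold in WT and by 8.73-fold in KO. Summed over both genes, α subunit mRNA was 35.6 FPKM in the WT library against 23.4 in the KO library.

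Epas1 is strongly expressed by endothelial cells, so markers of that cell type were set beside it. Of the 10 endothelial markers, 7 were above 0 in WT and 5 in KO, and Cldn5, Egfl7 and Emcn were listed at 0 in both libraries. Their summed level was 21.2 FPKM (WT) and 22.7 FPKM (KO). Of the 6 compared, 4 were above 0 in change and 2 below, and 1 was past 3-fold (16.7%, against 27.3% of all genes), Tie1, which was at 4.12 FPKM in WT and listed at 0 in KO. Pecam1 was at 6.67 and 8.70 FPKM and Cdh5 at 5.53 and 5.98. Of the 6 pericyte markers 3 were above 0 in WT and 4 in KO, Kcnj8 was listed at 0 in both, and their sum was 5.84 FPKM in WT and 1.43 in KO. Pdgfrb was at 3 and 0.216 FPKM, Rgs5 at 1.56 and 0.0778, and Notch3 at 1.29 FPKM in WT and 0 in KO, while Abcc9 and Cspg4 were at 0 in WT and at 0.75 and 0.382 FPKM in KO. The part of either cell type in the Epas1 difference was not tested.

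Arnt (ENSMUSG00000015522), the shared partner of all HIF-α subunits, was at 27.5 FPKM in the WT library against 26.6 in the KO library. Its change of -0.04 was the smallest of the 7 genes, and it was -0.00 once both libraries were scaled to the same sum. Arnt mRNA amounted to 0.772 times the sum of Hif1a and Epas1 in WT and to 1.14 times that sum in KO. The remaining α subunit Hif3a, whose splice forms can oppose the other HIF, was at 3.07 and 6.83 FPKM, a change of 0.94. Arnt2, a relative of Arnt found mostly in neurons, was listed at 0 in both libraries.

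The prolyl hydroxylases differed from each other. Egln1 (ENSMUSG00000031987), which encodes PHD2, the main HIF-α hydroxylase in most cells, was at 18.1 FPKM (WT) and 0.865 FPKM (KO). It was 21-fold lower in the KO library, a change of -3.36. Since this gene has a single annotated transcript, its fragments could be estimated directly, at 382 in WT and 23.2 in KO. Past 3-fold were 26.6% of the 3746 genes with a mean FPKM of 5 to 20, the class that holds Egln1 and Vhl.

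Egln2 (ENSMUSG00000058709), which encodes PHD1 and is not regarded as hypoxia-inducible, was at 28.8 FPKM in the WT library against 35.4 in the KO library, a change of 0.29. Egln3 (ENSMUSG00000035105), encoding the strongly hypoxia-inducible PHD3, was listed at 0 in both libraries. For a transcript of its length, 3 fragments would correspond to 0.192 FPKM (WT) and 0.151 FPKM (KO). Egln1 and Egln2 together therefore made up the listed prolyl hydroxylase mRNA.

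Their balance differed between the libraries. Egln1 supplied 38.7% of the summed Egln level of 46.9 FPKM in WT and 2.39% of the 36.2 FPKM in KO. In WT the level of Egln2 was 1.59 times that of Egln1, and in KO it was 40.9 times as high. P4htm, a prolyl hydroxylase of the endoplasmic reticulum that can also act on HIF-α, was listed at 0 in both libraries.

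Hif1an (ENSMUSG00000036450) encodes FIH, which acts on the transactivation domain of HIF-α and stays active at lower oxygen than the PHD enzymes. Its level was 0.574 FPKM in the WT library against 4.59 in the KO library, on an estimated 20.8 and 212 fragments. It was 8-fold higher in the KO library, a change of 1.83, in the class of 1 to 5 mean FPKM where 54.1% of genes were past 3-fold. Hif1an took 1.21% of the summed level of the 4 hydroxylases in WT and 11.2% in KO. It was nevertheless low in both libraries, as 11.9% of all genes compared lay below it in WT and 33.1% in KO. Apba3, whose product Mint3 binds and restrains FIH in macrophages, was at 15.3 and 11.3 FPKM, a change of -0.40.

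Vhl (ENSMUSG00000033933) encodes the substrate receptor of the ubiquitin ligase. It was at 8.53 FPKM (WT) and 3.81 FPKM (KO), on an estimated 139 and 79.3 fragments. This was a 2.24-fold difference and a change of -0.99, which did not pass 3-fold.

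In order of level, the WT library ran Hif1a, Egln2, Arnt, Egln1, Vhl, Epas1, Hif1an and Egln3. In KO the order was Egln2, Arnt, Hif1a, Hif1an, Vhl, Epas1, Egln1 and Egln3. Egln1 went from place 4 to place 7, and Hif1an from 7 to 4. With no replicates, the spread that would separate neighbours in these orders is unknown. The 3 highest genes in either library were the same ones, Hif1a, Egln2 and Arnt, and all 3 kept within 1.45-fold. In their class of 20 to 50 mean FPKM, 11.7% of genes were past 3-fold.

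**Figure D2:**
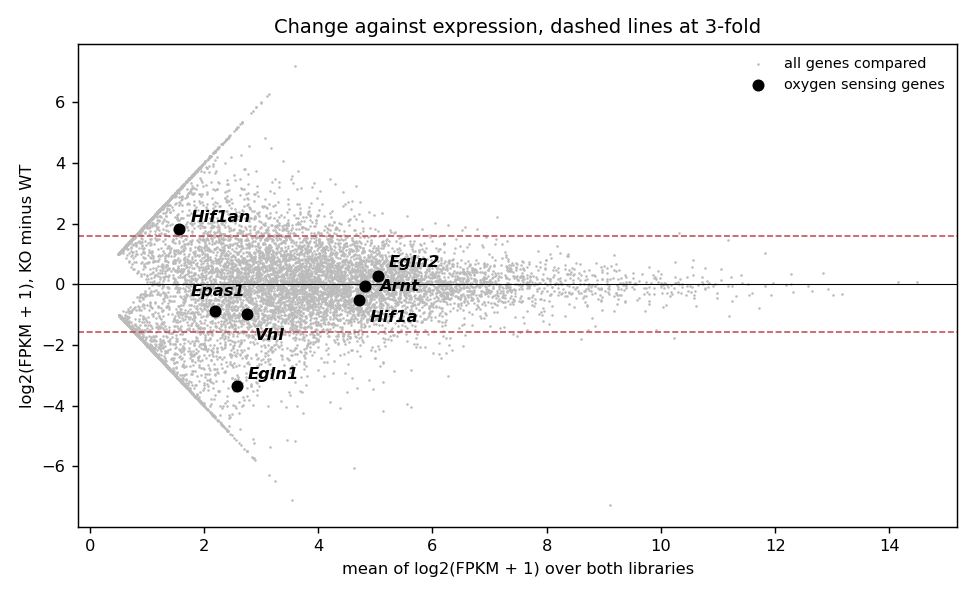
The horizontal axis is the mean log2(FPKM + 1) over both libraries and the vertical axis the change, KO minus WT, for 10297 genes (grey) and the 7 oxygen sensing genes among them (black), with dashed lines at 3-fold. Hif1an lies above the upper line and Egln1 below the lower one, and the grey points spread more widely at low levels.

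The genes nearest in level to 3 of the members, measured as the distance between their log2(FPKM + 1) values over the 2 libraries, were unrelated by name. For Hif1a they were Rab6a, Prep and Acvrl1, at distances of 0.024 to 0.050. Igf2r, C1d and Zfp942 lay nearest to Epas1, at 0.028 to 0.059. Egln1 had more distant neighbours, at 0.133 to 0.149, namely Lonp2 (18.5 FPKM in WT and 0.704 in KO), Stambpl1 and Extl2. Over only 2 libraries such likeness says nothing of shared control.

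Partners of the pathway were described next, from lists of 20 genes, of which 17 were compared. The cullin ligase around VHL consists of the adaptors elongin B and elongin C, the scaffold Cul2 and the ring protein Rbx1, and is activated by Nedd8. Of its 5 genes 1 was past 3-fold (20%, against 27.3% of all genes). Eloc, encoding elongin C, was at 13.9 FPKM in the WT library against 49.6 in the KO library, a change of 1.76. Elob was at 258 and 235 FPKM, Rbx1 at 40.2 and 37.7, and Nedd8 at 219 and 151. Cul2 was at 3.95 FPKM (WT) and 0.758 FPKM (KO), a change of -1.49 that stayed under 3-fold on this scale although the FPKM differed 5.21-fold.

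None of the 4 coactivator genes and competitors compared was past 3-fold, too few genes to set against the 27.3% of all genes. Ep300 and Crebbp, encoding p300 and CBP, were at 38 and 32.2 FPKM and at 41.3 and 46.1 FPKM in WT and KO. Cited2, a HIF target whose product competes with HIF-α for p300 and CBP, was at 51.7 FPKM in the WT library against 94.6 in the KO library, a change of 0.86. Cited4 was listed at 0 in both.

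Genes that act on the stability of HIF-1α or its hydroxylases by other routes held 3 past 3-fold among 7 (42.9%, against 27.3% of all genes). Siah1a and Siah2 encode ubiquitin ligases that degrade PHD1 and PHD3. Siah1a was at 0.410 FPKM (WT) and 9.50 FPKM (KO), a change of 2.90, and Siah2 was at 16.0 and 59.1 FPKM, a change of 1.82. Usp20, encoding a deubiquitinase of HIF-1α, was at 4.46 and 0.505 FPKM, a change of -1.86. The low levels rested on few fragments by the estimate used, 4.72 for Siah1a in WT and 2.09 for Usp20 in KO. That estimate takes the median length of the annotated coding transcripts, so short annotated transcripts can make it too low. Siah1a reached 1 FPKM only in KO and Usp20 only in WT.

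Rack1 and Hsp90 compete on HIF-1α, Rack1 favouring its degradation and Hsp90 its stability. Rack1 was at 673 FPKM in the WT library against 373 in the KO library, Hsp90aa1 at 84.4 and 135, and Hsp90ab1 at 411 and 504. Os9, which has been linked to PHD binding, was at 85.3 and 44.0 FPKM. Over all 17 partners 3 were higher and 1 lower past 3-fold, which is 23.5% against the 27.3% of all genes, and their median change was -0.09. Levels were not matched in this comparison.

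**Figure D3:**
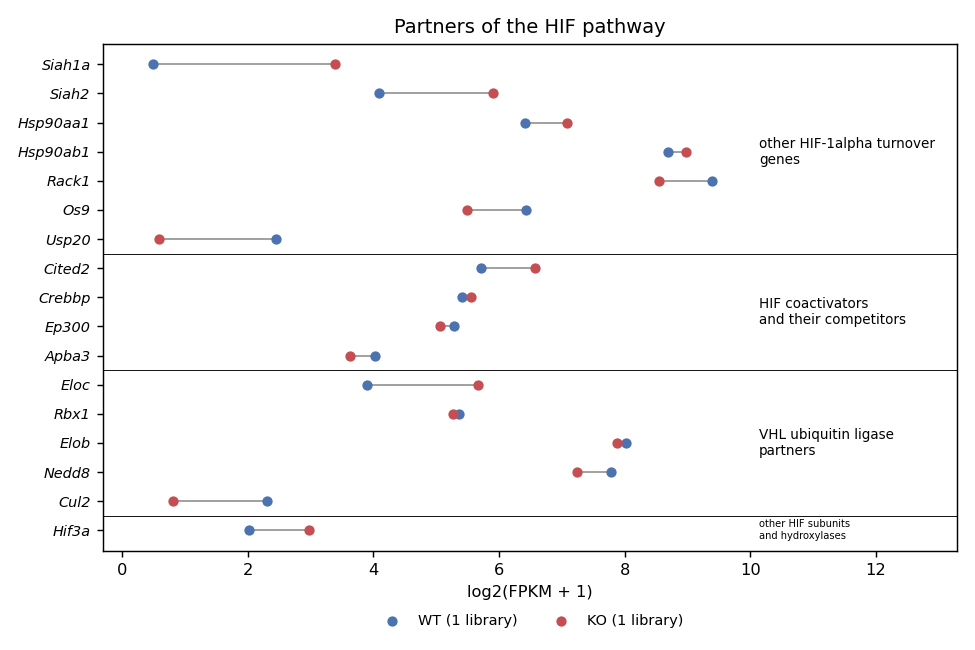
Each line joins the log2(FPKM + 1) of a pathway partner in the WT library (blue) and the KO library (red), grouped by role, for the 17 genes above 0 in a library. The longest lines belong to Siah1a (0.410 and 9.50 FPKM), Usp20 (4.46 and 0.505 FPKM), Siah2 and Eloc.

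Genes known as HIF targets were then counted. Of the 38 genes 5 were listed at 0 in both libraries, among them Adm, Ankrd37 and Nos2, and 33 were compared. Past 3-fold were 2 higher and 3 lower in KO, which is 15.2% against 27.3% of all genes. The share among all genes fell with level, from 54.1% at 1 to 5 mean FPKM to 11.7% at 20 to 50. The targets, many of them abundant, were not set against genes of like level. Their median change was -0.19, with 15 genes above 0 and 18 below.

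The lower genes were led by Hilpda, which encodes a lipid droplet protein, at 149 FPKM (WT) and 7.30 FPKM (KO). Car9, a carbonic anhydrase often used as a marker of hypoxia, was at 4.36 FPKM in WT and listed at 0 in KO. Pdk1, the kinase that closes pyruvate dehydrogenase, was at 4.46 FPKM in WT and listed at 0 in KO. Car9 and Pdk1 thus passed the filter only through WT, which set their direction. Among abundant targets that did not pass 3-fold, the glycolytic enzyme gene Tpi1 was at 146 and 56.5 FPKM, a change of -1.35, and Higd1a, of mitochondria, was at 43.9 and 17.8, a change of -1.26.

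Other targets had higher levels in KO. Bnip3, which directs mitochondria to autophagy, was at 1.51 FPKM in the WT library against 8.93 in the KO library, a change of 1.98 with about 10.9 fragments behind the WT level. Pfkl, a phosphofructokinase, was at 3.55 and 14.8 FPKM, a change of 1.79. Pfkfb3, which makes an activator of phosphofructokinase, lay just under the threshold at 38.9 and 119 FPKM, a change of 1.58, and the glucose transporter gene Slc2a1 was at 15.4 and 42 FPKM, a change of 1.39. Hk1, a hexokinase gene, was at 14.6 and 30.1 FPKM, a change of 0.99. Lower in KO, in contrast, were another hexokinase gene, Hk2, at 15.5 and 5.41 FPKM (-1.36), and Ddit4, at 19.1 and 5.98 (-1.52). Hmox1, whose product degrades heme, was the highest of the list at 937 and 1576 FPKM, a change of 0.75, and Vegfa was at 4.17 and 4.36 FPKM. The 16 targets of glycolysis and its control had a median change of -0.32, and the 17 other targets compared had a median of 0.05.

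**Figure D4:**
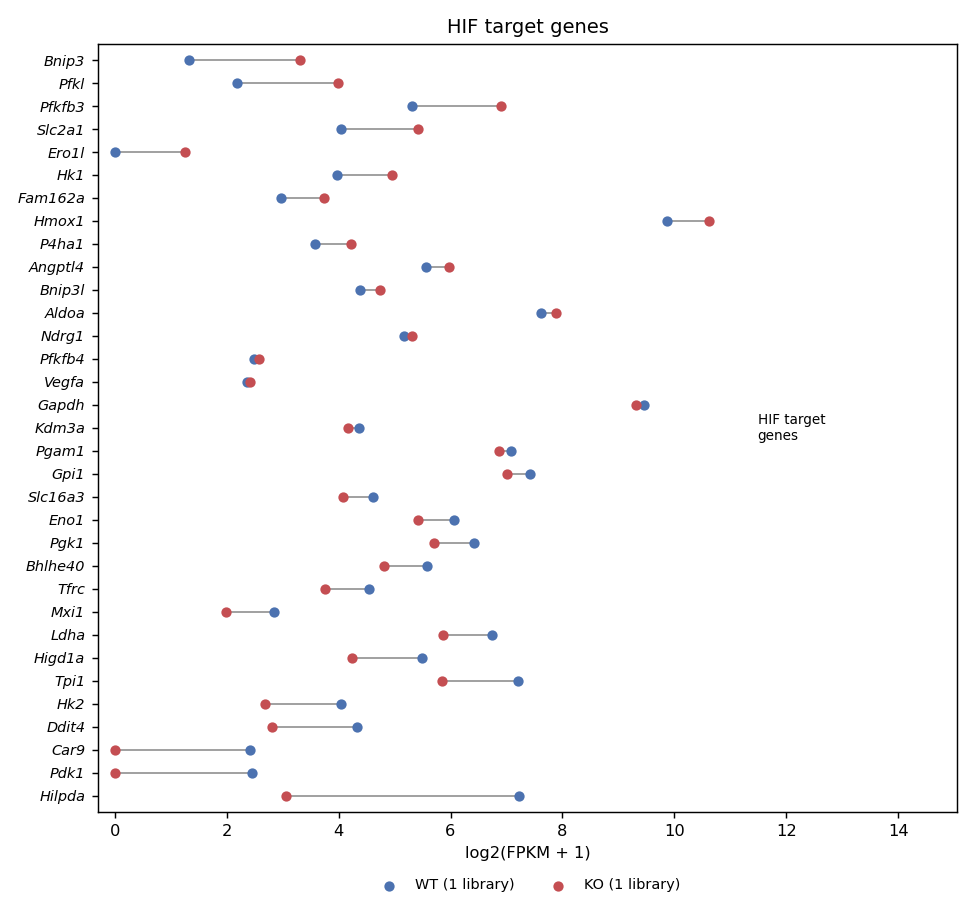
Each line joins the log2(FPKM + 1) of a target gene in the WT library (blue) and the KO library (red), sorted by change. Hilpda has the longest line, at 149 FPKM in the WT library against 7.30 in the KO library, and of the 33 targets compared 15 lie higher in KO.

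The sorted cells carried macrophage mRNA in both libraries. Of the 11 macrophage markers 10 were matched, none was past 3-fold, and their median change was -0.01. All 10 had a mean level above 20 FPKM, and already at 20 to 50 FPKM only 11.7% of genes were past 3-fold. The 7 neutrophil markers matched summed to 143 FPKM (WT) and 499 FPKM (KO), and S100a8 and S100a9 made up most of both sums. All 6 neutrophil markers compared were higher in KO and 3 were past 3-fold (50%, against 27.3% of all genes). Those 3 were S100a9 at 63.4 and 301 FPKM, and Ngp and Mpo, listed at 0 in WT and at 2.61 and 2.29 FPKM in KO. Ngp, Mpo and Retnlg (0.385 and 2.46 FPKM) reached 1 FPKM only in KO, so the filter set their direction. S100a8 was at 73.3 and 182 FPKM, Cxcr2 was at 5.83 and 7.96, and Camp was listed at 0 in both. The 6 fibroblast markers summed to 43.2 and 84.3 FPKM. All 5 compared were higher in KO and 2 were past 3-fold (40%, against 27.3% of all genes). These 2 were Col1a2, at 0.0948 and 4.75 FPKM, and Pdgfra, at 0.0246 and 4.98, with an estimated 1.72 and 0.414 fragments in WT. Both lay at mean levels where 54.1% of genes were past 3-fold. Both also reached 1 FPKM only in KO, so the filter set their direction. The changes of Col1a1, Col3a1 and Dcn were 0.49, 0.45 and 0.81. Dcn made up most of the sum, at 35 and 62.3 FPKM. The 6 adipocyte markers summed to 113 FPKM in each library, of which Fabp4 made up 90.1 and 91.4. Cidec, the 1 adipocyte marker past 3-fold among 4 compared (25%), was listed at 0 in KO against 5.83 FPKM for WT, and Adipoq and Plin1 were at 0 in both. The part of these cells in the differences above was not tested. The smallest recurring step of FPKM times transcript length put the depth at about 5860000 fragments in WT and 7470000 in KO, an estimate that covers counting error only, since PCR copies are not independent molecules.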

How the data were processed

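Poly(A) RNA of sorted ATM was sequenced, with 1 library per genotype. The authors deposited 1 table of FPKM values per gene. The submitters' processing notes name CASAVA 1.8.2, TopHat2 2.0.9, Cufflinks 2.2.1 and the genome mm9. Annotation and strand setting are not given in the sources used here. The column labelled mut was assigned to KO, since the series has no other library besides WT.

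Of 20749 rows, 401 that repeated another row in full were dropped, and 18 further rows of an identifier already present were summed. Symbols were found for 98.5% of identifiers. Lengths came from GENCODE M21 (GRCm38), as the median over the annotated coding transcripts of a gene, or over all its transcripts where none was coding. Fragment estimates of genes with several transcripts depend on this choice. Changes were computed in Python 3.11.15 with a pseudocount of 1, for genes reaching 1 FPKM in either library. A gene that reached 1 FPKM in only 1 library could only be higher there, so this filter set its direction. No test was possible with 1 library per genotype. The procedure was tested on simulated data, for genes well expressed in both libraries and with counting noise only. Low levels such as those of Egln1 in KO and Hif1an in WT were not covered by that simulation.

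Genes and lists were chosen with earlier results of these data known. Named were the 8 genes, members of the pathway, target and dioxygenase lists past 3-fold or at 20 FPKM or more (up to 10 a list, by change), and the 3 genes nearest to Hif1a, Epas1 and Egln1. A few others (Hif3a, Apba3, Cul2, Hk2, Ddit4, Hmox1, Vegfa, Ado, Apoe, cell markers and genes at 0) were named after their values were seen. Alternatives were other pseudocounts, filters, thresholds, scalings and the highest row per identifier. The list associated with HIF-2α is not reported here.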

Additional observations from a re-analysis of the deposited data

How the results depend on the processing

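Across 8 alternative settings, 101 values were recomputed. Of these, 90 stayed within an allowance of 1.5-fold, 11 moved by more and 0 changed sign while past the threshold. Much of this tally was fixed in advance. The sign check covered only the changes of Egln1 and Hif1an, and neither pseudocount nor filter can turn a sign. Dropping the filter or taking the highest row left the change of each oxygen sensing gene as it was. A filter of 1 FPKM that both libraries had to reach left 0 oxygen sensing genes past 3-fold, because Egln1 (0.865 FPKM in KO) and Hif1an (0.574 FPKM in WT) failed that filter, and 876 of all genes, 429 higher and 447 lower. A 2-fold threshold gave 4694 genes in all, 2380 higher and 2314 lower. The change of Egln1 was -4.24 with a pseudocount of 0.1 and -4.38 with 0.01, and that of Hif1an was 2.80 and 2.98. Hif1a ranged from -0.54 to -0.48 and Epas1 from -1.12 to -0.86. No paired analysis was possible because the comparison holds a single library on each side. Depth limits the precision of Egln1 in KO, on an estimated 23.2 fragments, and of Hif1an in WT, on 20.8. By the same kind of estimate it limits more that of Siah1a (4.72) and Bnip3 (10.9) in WT, Usp20 (2.09) and Kdm4b (4.53) in KO, and Pdgfra (0.414) in WT. Such estimates can be too low where the annotated coding transcripts are short.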

Other observations

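Besides the HIF hydroxylases, further dioxygenases use oxygen, most of them together with 2-oxoglutarate, and some can respond to oxygen supply. Lists of them were added after the values of the oxygen sensing genes had been seen, and are described without a test. Of 15 histone and DNA demethylating enzymes 14 were compared, 1 was past 3-fold (7.14%, against 27.3% of all genes), and their median change was 0.07. Those shares were not compared at matched level. Kdm6b, a histone demethylase of activated macrophages, was the highest at 303 FPKM in the WT library against 334 in the KO library. Tet3 was at 32.7 and 32.9 FPKM and Tet2 at 21.2 and 18.8. Kdm4b, a known HIF target, was the exception at 3.54 FPKM (WT) and 0.170 FPKM (KO), a change of -1.96. Kdm2b was at 23.2 and 13.4 FPKM, Kdm7a at 24.3 and 35.2, and Kdm2a at 18.6 and 26.1.

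Of 6 collagen and other protein hydroxylases 3 were compared and 0 were past 3-fold, too few to set against the 27.3% of all genes. Jmjd6 was at 29 FPKM in the WT library against 44.2 in the KO library, Plod1 at 59.0 and 53.7, and Plod3 at 35 and 30.8. Ado, a cysteine dioxygenase that senses oxygen apart from HIF, was at 0.0736 and 0.0294 FPKM and too low to compare.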
